A study of Mus musculus with 48 samples.

Results

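The subject is a set of 8 transcription factor genes that give nephron epithelium its identity or run its oxidative metabolism, measured by RNA-seq in mouse kidney slices kept outside the body. The 8 genes, of 55487 in the deposited table, were chosen by name: Hnf4a, Pax2, Pax8, Lhx1, Ppara, Ppargc1a, Esrra and Rxra. All 8 passed the filter on low counts in every comparison.

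The mice were male C57BL/6J or DBA/2J, both inbred, and the 48 libraries formed 16 groups of 3. Untreated controls were taken at 6 h and at 24 h. Tunicamycin, which blocks N-linked glycosylation, and cyclosporin A, a calcineurin inhibitor, were each given for 6 h and for 24 h. A further arm was kept under normoxia (called an ischemia model in the labels) and another under normoxia-hyperoxia (called a reperfusion model), both titled as 24 h. The labels give no doses, no ages, no oxygen level for any slice, and no untreated control of the 2 oxygen arms' own, so these arms were set against the 24 h and the 6 h controls. The replicates are labelled as biological, but whether same-numbered libraries share a mouse is not stated, so p-values describe the spread between libraries.

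Most of the slice is tubule. HNF4A is a nuclear receptor that drives maturation of the proximal tubule, the segment that reabsorbs most of the filtrate and depends on fat oxidation. PAX2 and PAX8 are paired-box factors of the early kidney that adult tubule cells still express, and LHX1 is a LIM-homeobox factor needed to form the first nephron structures. PPARA switches on fatty acid oxidation genes as a heterodimer with RXRA, a receptor shared by many nuclear receptors. PGC-1α, encoded by Ppargc1a, is a coactivator of mitochondrial biogenesis, and ERRα, encoded by Esrra, is one of the receptors through which it acts.

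On GRCm38 (GENCODE M21 annotation) Hnf4a (ENSMUSG00000017950) spans chr2:163506808-163572910, Pax8 (ENSMUSG00000026976) chr2:24420560-24475599 and Rxra (ENSMUSG00000015846) chr2:27676440-27762957. Pax2 (ENSMUSG00000004231) lies at chr19:44756045-44837871 and Esrra (ENSMUSG00000024955) at chr19:6910977-6921813. Ppara (ENSMUSG00000022383) is at chr15:85734983-85802819, Ppargc1a (ENSMUSG00000029167) at chr5:51454250-51567726 and Lhx1 (ENSMUSG00000018698) at chr11:84518284-84525535. All 8 are protein-coding. Ppara, Rxra and Lhx1 overlap no other annotated gene. Hnf4a has the antisense gene Hnf4aos across it, and Esrra overlaps Trmt112 on the opposite strand. The library kit marks strand, but the strand setting of the count is not given, so such partners may share reads. Group means of Hnf4aos ran from 0.55 to 6.66 CPM (counts scaled to a common library size), and those of Trmt112 from 13.2 to 23.9 CPM.

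Promoter sequence is shown for 4 members that moved together or apart in the results below. RefSeq promoter windows (GRCm38.p6) were given for all 8 members, 12 windows in all. Each run is the 200 bases before an annotated start, 5′ to 3′ on the gene's strand. The Hnf4a run precedes the downstream of its 2 annotated starts (chr2:163546955-163547154, plus strand) and the Rxra run the downstream of its 2 (chr2:27709092-27709291, plus strand). The Ppargc1a run is chr5:51567726-51567925 (minus strand) and the Lhx1 run is chr11:84525535-84525734 (minus strand).
Hnf4a: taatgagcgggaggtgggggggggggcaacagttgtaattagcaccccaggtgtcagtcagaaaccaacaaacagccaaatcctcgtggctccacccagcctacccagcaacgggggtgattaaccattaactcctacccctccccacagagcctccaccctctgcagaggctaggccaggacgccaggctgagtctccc
Ppargc1a: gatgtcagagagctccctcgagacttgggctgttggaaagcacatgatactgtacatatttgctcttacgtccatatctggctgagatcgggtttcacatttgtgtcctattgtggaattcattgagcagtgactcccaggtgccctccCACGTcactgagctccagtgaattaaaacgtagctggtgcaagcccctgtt
Rxra: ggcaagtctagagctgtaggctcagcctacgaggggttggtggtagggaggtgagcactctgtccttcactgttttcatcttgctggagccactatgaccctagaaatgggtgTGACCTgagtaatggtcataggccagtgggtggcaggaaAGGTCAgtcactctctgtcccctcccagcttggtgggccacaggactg
Lhx1: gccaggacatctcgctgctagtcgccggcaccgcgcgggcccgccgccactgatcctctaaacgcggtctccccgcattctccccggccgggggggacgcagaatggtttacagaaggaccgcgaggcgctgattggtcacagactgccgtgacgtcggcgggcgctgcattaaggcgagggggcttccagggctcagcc
Capitals mark matches to motifs searched on both strands in the 250 bases before each start. Of 3 motifs searched first, 1 is not reported here, and the others were TNAAGGTCA (ERR element) and CAAAGTCCA (HNF4 element). All 3 matched 0 of the 12 member windows, and the latter 2 matched 1.14% and 0.384% of all 32851 windows. After that result 3 more were searched. They were AGGTCA (nuclear receptor half-site, whose letters lie inside the ERR element), TGACGTCA (cAMP response element) and ACGTG (a form of the hypoxia response core). The form GCGTG was not searched. AGGTCA matched 1 of the 12 member windows, that of Rxra shown (at 2 places), against 14% of all windows. ACGTG matched 1 of 12, that of Ppargc1a, against 16.6%, and TGACGTCA matched 0, against 1.55%. A match is a description of letters only. The windows differed in base composition, with a median of 6 CpG over all windows. The Lhx1 window held 26 CpG, the Hnf4a window shown 4 and the Rxra window shown 1. The Rxra window not shown held 40 CpG. Which start is used in these slices was not tested.

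Total counts were 12384733 to 25137581 per library, apart from DBA/2J normoxia-hyperoxia replicate 2 with 5619309. Leaving that library out ended 2 calls on single members, both named below. Levels are CPM scaled with TMM (trimmed mean of M-values) factors over all 48 libraries, and changes are log2 fold changes from edgeR quasi-likelihood tests, averaged over the strains unless a strain is named. A change was called at a Benjamini-Hochberg adjusted p under 0.05 over all genes tested. In bulk slices, fewer cells of a type and less RNA per cell cannot be told apart. Markers of each tubule segment, podocytes, endothelium, stroma and leukocytes were all detected, with none at 0 in any group. The summed level of 6 proximal tubule markers (Lrp2, Cubn, Slc34a1, Slc5a12, Aqp1, Slc22a6) moved widely between conditions and is given beside the results it accompanies.

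**Figure D1:**
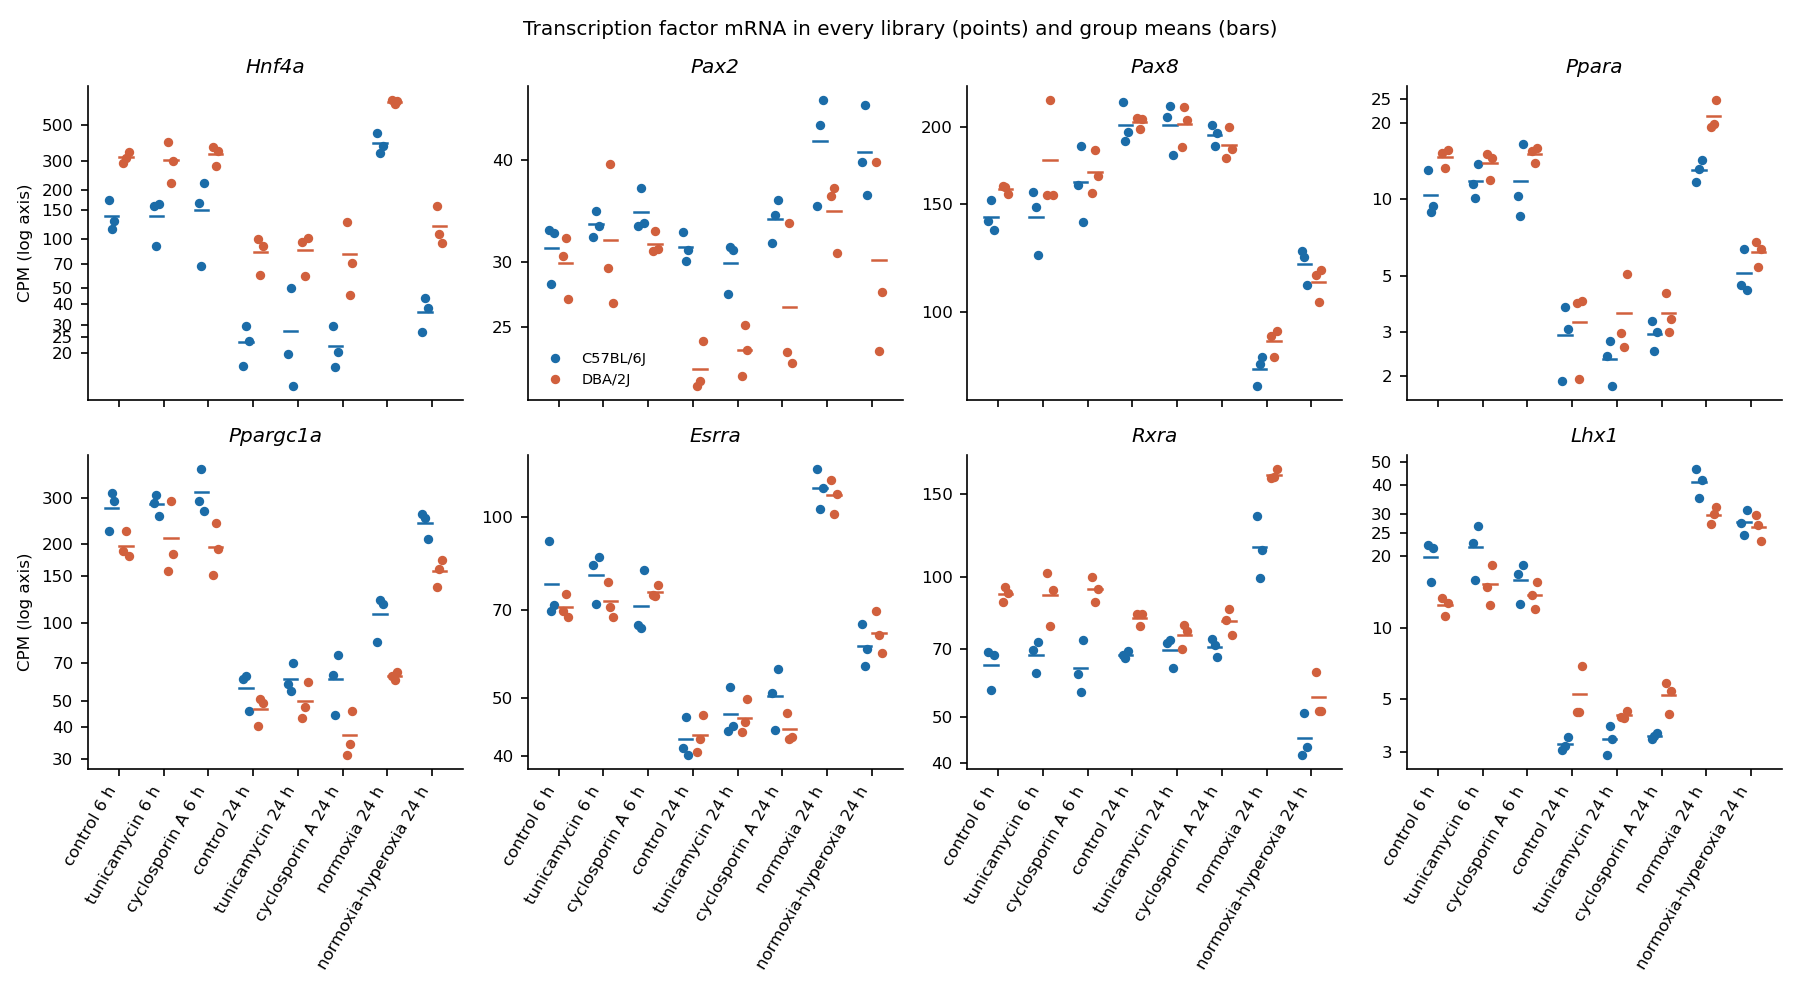
Level of each transcription factor gene in CPM (log axis) in every library, by condition, with C57BL/6J in blue, DBA/2J in orange, points for libraries and bars for group means. Drug groups lie on their controls, and Pax8 is high where most other members are low.

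Ordered by level per kilobase of exon in C57BL/6J 6 h controls, Ppargc1a led with 41.7 ± 7.0 CPM per kb, followed by Hnf4a with 28.9 ± 6.3 and Pax8 with 23.6 ± 1.4 (SD, n = 3). Neighbours in those first 3 places overlapped in their spread. Esrra (17.7 ± 2.7), Rxra (11.8 ± 1.2), Pax2 (5.78 ± 0.48), Lhx1 (4.88 ± 0.90) and Ppara (2.72 ± 0.59) followed on the same scale (SD, n = 3). In DBA/2J 6 h controls Hnf4a came first with 65.6 ± 5.0 CPM per kb, clear of Ppargc1a with 29.8 ± 3.6 (SD, n = 3). The order changed with the condition. In 24 h controls Pax8 stood first in both strains, with 33.3 ± 2.6 CPM per kb in C57BL/6J and 33.7 ± 0.74 in DBA/2J, and Ppara last (SD, n = 3). Under normoxia Hnf4a was first in both strains, with 79.7 ± 11.9 and 143 ± 3.7 CPM per kb (SD, n = 3). Under normoxia-hyperoxia Ppargc1a led in C57BL/6J with 36.4 ± 4.3 CPM per kb, while in DBA/2J Hnf4a with 24.9 ± 7.2 and Ppargc1a with 23.8 ± 2.8 overlapped (SD, n = 3).

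The drug comparisons asked whether nephrotoxins move these factors. No member was called with either drug at either time: 0 of 8 for tunicamycin at 6 h and 24 h and 0 of 8 for cyclosporin A at 6 h and 24 h. The mean log2 changes ran from -0.04 to 0.21 and from -0.10 to 0.15 for tunicamycin, and from -0.10 to 0.13 and from -0.10 to 0.19 for cyclosporin A, at 6 h and 24 h. The edgeR test gave 0 members at an unadjusted p under 0.05 in each of these 4 comparisons, and DESeq2 also called 0. Over all genes edgeR called 0.0% with tunicamycin at 6 h, 1.38% with tunicamycin at 24 h, and 0.0% with cyclosporin A at 6 h and 0.0% at 24 h. At an unadjusted p under 0.05 edgeR had 281 genes for tunicamycin at 6 h, 734 for cyclosporin A at 6 h and 1107 for cyclosporin A at 24 h, where DESeq2 called 0, 51 and 22. Strain differences in the drug response were 0 of 8 in each comparison as well, against 0.0% of all genes in all 4, by edgeR, with 0 members at an unadjusted p under 0.05 and 0 called by DESeq2. Over all genes 288 and 338 (tunicamycin, 6 h and 24 h) and 407 and 259 (cyclosporin A) had an unadjusted p under 0.05 for that difference, and DESeq2 called 1, 0, 0 and 0. The precision differed between members. For Hnf4a under tunicamycin at 24 h the log2 change was 0.15 with an SE of 0.33, so shifts of that order could not be detected, whereas for Pax8 it was -0.01 with an SE of 0.054.

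Hnf4a showed that spread library by library. At 24 h of tunicamycin it stood at 19.8, 49.9 and 12.6 CPM in C57BL/6J, around controls at 16.7, 29.4 and 23.9 CPM. With cyclosporin A it stood at 29.4, 16.5 and 20.3 CPM in the same strain. The groups overlapped in both drugs. The proximal tubule marker sum ran alongside, at 464, 1063 and 194 CPM in the 3 C57BL/6J tunicamycin libraries in the same order. Of the genes on 5 lists of related factors and targets (140 genes in all), 1 was called in the drug comparisons: Klf15, a Krüppel-like factor of metabolic genes, at 24 h of tunicamycin (log2 0.53, SE 0.112, edgeR adjusted p = 0.0346). Leaving out any library but C57BL/6J tunicamycin 24 h replicate 3 ended that call.

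Between 6 h and 24 h of culture without any drug, 6 members fell in the mean over both strains. Pax8 rose, and Rxra was not called. Of the 8 members 7 were called (1 higher, 6 lower), where 72.0% of all genes were, so the count itself is near the background. The direction was uneven among the members, whereas 5883 genes rose and 6338 fell over the whole table. With library totals alone as the scale that split was 7580 and 4969, since the median log2 change of all genes moved from -0.02 to 0.19. Hnf4a, Ppargc1a, Ppara and Lhx1 fell most, by 3.9-fold to 4.83-fold in the mean over both strains.

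Hnf4a fell from 174, 115 and 130.0 CPM in C57BL/6J 6 h controls to 16.7, 29.4 and 23.9 CPM at 24 h. In DBA/2J it fell from 294, 315 and 342 CPM to 100.1, 60.1 and 90.2 CPM. Groups did not overlap in either strain, and the mean log2 change was -2.27 (SE 0.168, edgeR adjusted p = 1.5e-07), a 4.83-fold fall. Ppargc1a went from 223, 312 and 290.0 to 60.8, 62.2 and 46.02 CPM in C57BL/6J. Its DBA/2J libraries went from 187, 223 and 179 to 40.3, 51.1 and 49.1 CPM. This coactivator fell 4.58-fold (log2 -2.19, SE 0.107, edgeR adjusted p = 4.91e-10), with every 24 h library below every 6 h library of its strain.

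Ppara, the fatty acid receptor, dropped from 13.04, 8.91 and 9.38 to 1.92, 3.74 and 3.08 CPM in C57BL/6J. In DBA/2J it dropped from 15.2, 13.3 and 15.7 to 3.89, 1.96 and 3.96 CPM, for a mean log2 change of -2.03 (SE 0.19, edgeR adjusted p = 2.61e-07). Its partner Rxra behaved otherwise: 68.9, 57.2 and 68.1 CPM became 68.0, 67.0 and 69.2 CPM in C57BL/6J, and 88.5, 94.9 and 92.3 became 83.2, 78.4 and 83.1 CPM in DBA/2J. The C57BL/6J groups overlapped, and every DBA/2J library was lower at 24 h than at 6 h. The Rxra change was -0.07 (SE 0.06, edgeR adjusted p = 0.313), and its sign turned to 0.14 with library totals alone as the scale. Esrra fell 1.74-fold (log2 -0.80, SE 0.077, edgeR adjusted p = 2.77e-07) with separate groups in both strains.

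Pax8 rose from 141, 152 and 136 to 219.6, 190 and 197 CPM in C57BL/6J, and from 161, 160.0 and 156 to 207, 199 and 206 CPM in DBA/2J. The rise was 1.33-fold (log2 0.41, SE 0.0578, edgeR adjusted p = 1.41e-05), and all 24 h libraries lay above all 6 h libraries. With library totals alone its log2 change was larger, at 0.63. Pax2, its close relative, averaged 31.26 CPM at 6 h and 31.29 CPM at 24 h in C57BL/6J. In DBA/2J it averaged 29.92 and 22.24 CPM. Its change in the mean over both strains was -0.23 (SE 0.0709, edgeR adjusted p = 0.00824), with overlapping C57BL/6J libraries. With library totals alone it was -0.02 (adjusted p = 0.808), which was not called. That call was also lost in a fit of all 48 libraries (-0.21, adjusted p = 0.0587). Lhx1 fell from 22.3, 15.6 and 21.7 to 3.05, 3.18 and 3.45 CPM in C57BL/6J. In DBA/2J it began lower, at 13.4, 11.2 and 12.7 CPM, and ended higher, at 4.41, 4.42 and 6.89 CPM. The Lhx1 fall was therefore 6.24-fold in C57BL/6J slices and 2.43-fold in DBA/2J, an interaction of 1.36 (log2, SE 0.27, edgeR adjusted p = 0.0384). It was the 1 member of 8 with a called strain difference in this response, where 0.69% of all genes had one. That call was kept without C57BL/6J control 6 h replicate 2 and without DBA/2J control 24 h replicate 1 or 2, but was lost when any other of the 12 libraries was left out, with an adjusted p between 0.0531 and 0.127. It was also lost with library totals alone (adjusted p = 0.0508), and in 11 of 18 alternatives in all.

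Most genes on the 5 lists of related factors and targets fell as well, where 37.4% of all genes fell and 34.7% rose. The lists were chosen with earlier results of these data known, so their counts are a description. Of 25 proximal tubule genes bound or controlled by HNF4A, 25 fell, with a median log2 change of -2.46 against -0.02 for all genes. Examples are the phosphate carrier Slc34a1 (-2.70, SE 0.24), the organic anion carrier Slc22a6 (-2.67, SE 0.23) and G6pc, the last enzyme of glucose release, which fell most (-4.38, SE 0.24). Of 30 PPARA and fat oxidation genes 25 fell and 4 rose (median -1.18); Cpt1a, the gate of fatty acids into mitochondria, changed by -1.31 (SE 0.086), while Plin2, which coats lipid droplets, rose by 3.40 (SE 0.14). Of 30 respiration genes assigned to PGC-1α and ERRα 26 fell and 4 rose (median -0.85), with Sdhb of complex II at -1.10 (SE 0.087). Among 25 other nephron factors 19 fell, 2 rose and 1 was too low to test. The podocyte factor Wt1 (-0.53) and the collecting duct factor Tfcp2l1 (-0.52) fell, and Emx2 was not called (-0.22). Among 30 other nuclear receptors and coactivators 20 fell and 4 rose (9 rose with library totals alone); Esrrg, an ERR relative, changed by -2.47 (SE 0.088) and the coactivator Ppargc1b by -0.92, while Pparg rose by 0.72 and Rxrb was not called (-0.03). Among the respiration genes Tfam, which packages mitochondrial DNA, rose by 0.22 and the cytochrome c gene Cycs changed by -0.69. The 6 proximal tubule markers, of which 5 are also on the HNF4A list, all fell, with a sum of 3648 ± 1175 CPM at 6 h and 419 ± 82 CPM at 24 h in C57BL/6J slices (SD, n = 3). The DBA/2J sums were 5627 ± 570 and 1221 ± 441 CPM (SD, n = 3). The markers of the loop of Henle, distal convoluted tubule, principal cells, intercalated cells and podocytes also fell, 4 of 4 in each set, as did 3 of 4 stroma and 3 of 4 leukocyte markers, while endothelium had 1 of 4 higher and 2 lower. The share of counts from mitochondrial genes was 15.4% ± 0.78 at 6 h and 6.82% ± 0.97 at 24 h in C57BL/6J slices, and 8.16% ± 0.145 and 3.52% ± 0.12 in DBA/2J (SD, n = 3). The part of either in the members' falls was not tested.

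**Figure D2:**
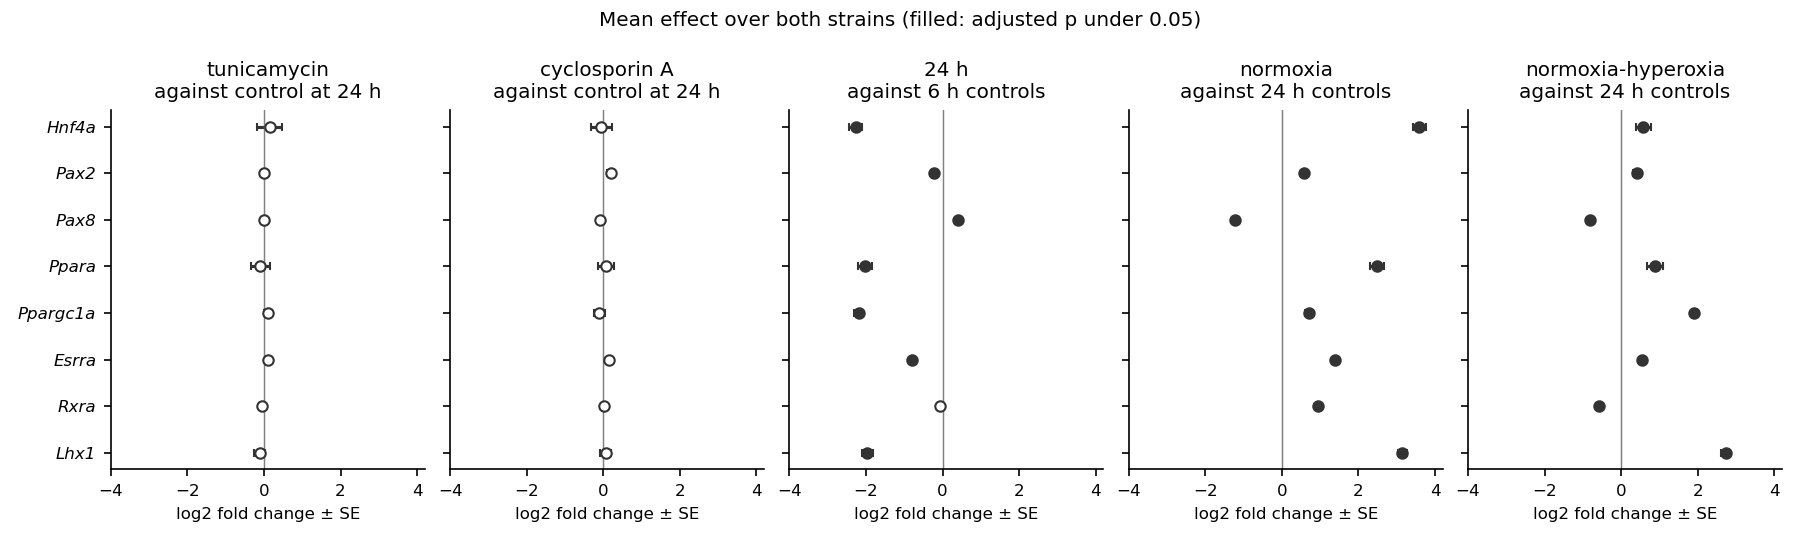
Mean log2 fold change over both strains with its SE for the 8 genes in 5 comparisons; filled points passed an adjusted p of 0.05. Drug effects lie near 0. The culture time and the 24 h normoxia contrasts share the 24 h control libraries with opposite sign, so their signs are not independent; the Rxra time effect was not called and turned positive with library totals alone.

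Normoxia was compared with 24 h controls to see where the factors stood in the ischemia model. All 8 members were called, 7 higher and Pax8 lower, at a background of 82.0% of all genes called (7359 higher, 6891 lower, or 5935 and 8360 with library totals alone). Groups were separate in both strains for all 8. Hnf4a and Lhx1 rose most.

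Hnf4a reached 448, 336 and 371 CPM in C57BL/6J slices and 708, 673 and 697 CPM in DBA/2J under normoxia. Every normoxia library lay above every control library of its strain, and the change from 24 h controls was 12.1-fold (log2 3.59, SE 0.162, edgeR adjusted p = 9.17e-10). Lhx1 reached 46.6, 35.2 and 41.8 CPM in C57BL/6J slices and 27.3, 29.97 and 32.4 CPM in DBA/2J, an 8.87-fold rise (log2 3.15, SE 0.118, edgeR adjusted p = 7.8e-13). Its rise was 12.9-fold in C57BL/6J slices and 6.11-fold in DBA/2J, and the interaction of -1.08 (SE 0.235, edgeR adjusted p = 0.00664) was the only called strain difference among the members, at a background of 17%. That call held in all 18 alternatives. Both Lhx1 interactions share the 24 h control libraries.

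Ppara reached 11.7, 13.2 and 14.3 CPM in C57BL/6J slices and 19.4, 19.9 and 24.6 CPM in DBA/2J. It rose 5.59-fold (log2 2.48, SE 0.172, edgeR adjusted p = 4.06e-09). Esrra rose 2.63-fold (log2 1.40, SE 0.0623, edgeR adjusted p = 6.13e-12), to 120.2, 103 and 112 CPM in C57BL/6J slices and 115, 101 and 109 CPM in DBA/2J. The strains did not differ detectably in the Esrra response, with an interaction of 0.01 (SE 0.123). Rxra, whose mean change with culture time was not called, rose 1.91-fold (log2 0.94, SE 0.0659, edgeR adjusted p = 1.61e-09). Its libraries stood at 135, 99.2 and 114 CPM in C57BL/6J slices and 163, 164 and 169.9 CPM in DBA/2J. Pax2 rose 1.49-fold (log2 0.58, SE 0.0762, edgeR adjusted p = 3.38e-06).

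Ppargc1a was 1.64-fold higher than in 24 h controls (log2 0.72, SE 0.102, edgeR adjusted p = 1.83e-05), at 84.1, 121 and 118 CPM in C57BL/6J slices and 62.6, 60.4 and 64.9 CPM in DBA/2J. These levels lay below every 6 h control. With library totals alone the log2 changes of Rxra, Pax2 and Ppargc1a were smaller, at 0.66, 0.30 and 0.44, and still called. Pax8 fell to 75.8, 82.3 and 84.6 CPM in C57BL/6J slices and 91.6, 84.7 and 93.0 CPM in DBA/2J, the lowest group means of the 8 conditions in each strain. Its fall was 2.32-fold (log2 -1.21, SE 0.0532, edgeR adjusted p = 5.17e-12).

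Against 6 h controls all 8 members were called as well (6 higher, 2 lower; background 65.8%). Hnf4a was 2.42-fold higher (log2 1.28, SE 0.102), Lhx1 2.2-fold (1.14, SE 0.0989) and Rxra 1.77-fold (0.82, SE 0.0771). Smaller rises were called for Esrra (0.55, SE 0.0738), Ppara (0.41, SE 0.105, C57BL/6J libraries overlapping) and Pax2 (0.30, SE 0.082, DBA/2J libraries overlapping). Ppargc1a was 2.87-fold lower (-1.52, SE 0.106) and Pax8 1.79-fold lower (-0.84, SE 0.0573). By edgeR 0 members had a called strain difference here, against 3.66% of all genes, with 0 at an unadjusted p under 0.05 and 0 by DESeq2. The comparisons with 6 h and with 24 h controls share the normoxia libraries.

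All 25 HNF4A-linked genes rose above 24 h controls under normoxia, by a median log2 change of 3.43 against 0.05 for all genes; G6pc rose most (5.73, SE 0.24), and Lrp2, the endocytic receptor megalin, rose by 3.69 (SE 0.16). Over all genes 42.4% rose and 39.7% fell. Of the 30 PPARA and fat oxidation genes 26 rose and 4 fell (median 1.56). Cyp4a10, a fatty acid hydroxylase, rose by 4.27 (SE 0.15), while Plin2 fell by 4.54 (SE 0.099) and Pdk4, which restrains glucose oxidation, fell by 3.93 (SE 0.21) on the log2 scale. Of the 30 respiration genes 27 rose and 2 fell (median 0.95), with Sdhb at 1.39 (SE 0.069) and the citrate synthase gene Cs at 0.14 (SE 0.051). Among the other nephron factors 18 rose and 3 fell (median 1.36), led by Maf (3.11, SE 0.11) and opposed by Tfap2a (-2.37, SE 0.074). Among the other nuclear receptors 19 rose and 9 fell (median 0.33): Nr1h4, the bile acid receptor FXR, rose by 3.09 (SE 0.16), and Pparg changed by -1.95 (SE 0.15). Ppargc1b rose by 1.10, Emx2 by 1.56 and Tfcp2l1 by 1.00, while Wt1 changed by -0.42. The proximal tubule marker sum was 6337 ± 1376 CPM in C57BL/6J slices and 12540 ± 745 CPM in DBA/2J (SD, n = 3), above the 6 h controls in both strains. Against 24 h controls the marker sets of the loop of Henle, distal convoluted tubule and intercalated cells were also higher, 4 of 4 in each, as were 3 of 4 principal cell and 3 of 4 leukocyte markers. Podocytes had 3 of 4 lower, endothelium 1 higher and 2 lower, and stroma 1 lower. The share of counts from mitochondrial genes was 23.9% ± 1.5 in C57BL/6J normoxia and 12.3% ± 0.53 in DBA/2J normoxia, against 6.82% ± 0.97 and 3.52% ± 0.12 in 24 h controls (SD, n = 3). The part of either in the members' changes was not tested.

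**Figure D3:**
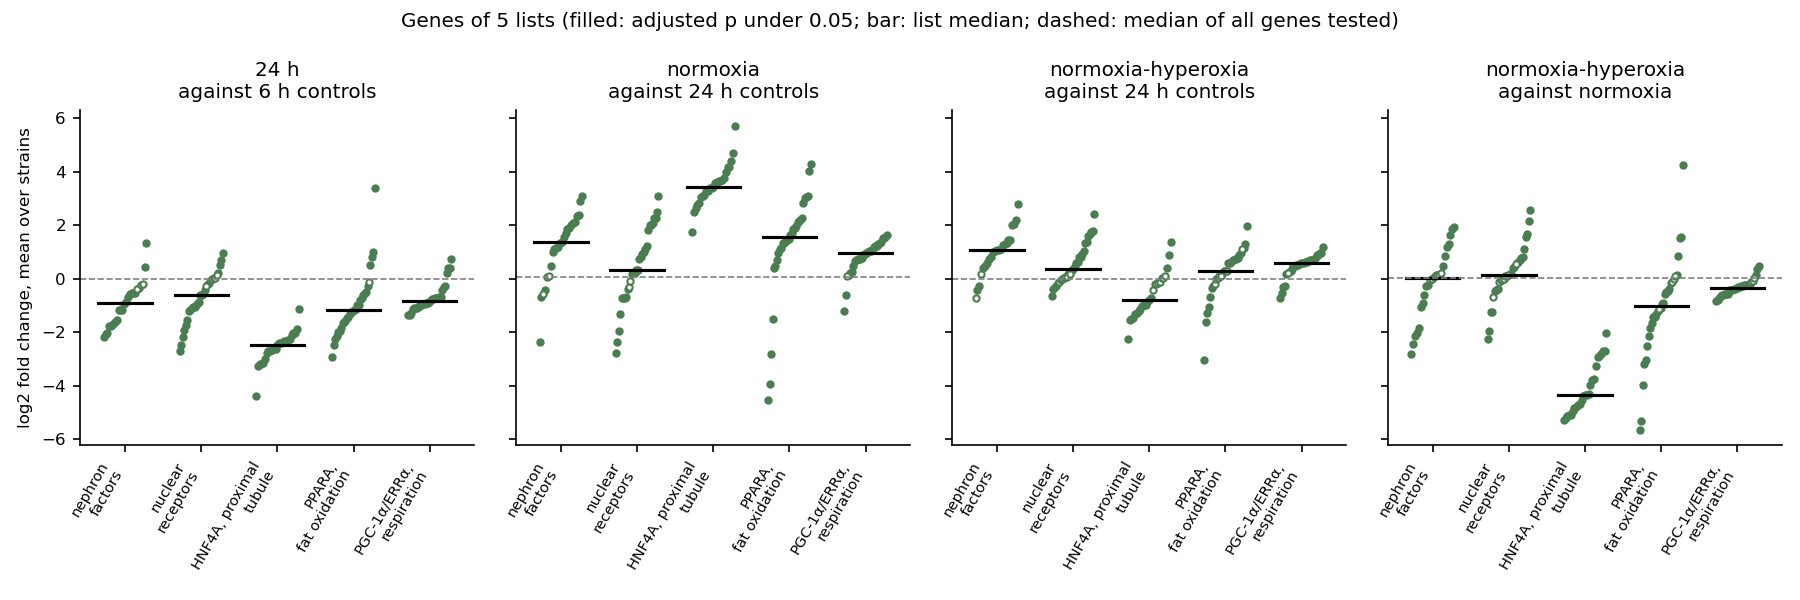
Log2 fold changes, averaged over the strains, of genes on 5 lists in 4 comparisons; each point is a gene, filled where called, with bars for list medians and dashed lines for the median of all genes tested. The HNF4A-linked genes lie below 0 with culture time and against normoxia, above 0 under normoxia, and on both sides of 0, with a median of -0.81, in normoxia-hyperoxia against 24 h controls.

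Normoxia-hyperoxia, the reperfusion model, split the members. Against 24 h controls all 8 were called (6 higher, 2 lower; background 68.2%, with 5881 genes higher and 5891 lower, or 4699 and 7347 with library totals alone). Lhx1 and Ppargc1a rose most, Pax8 and Rxra fell, and the smaller rise of Hnf4a was lost in several alternatives.

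Lhx1 stood at 27.5, 24.6 and 31.3 CPM in C57BL/6J slices and 29.7, 27.1 and 23.1 CPM in DBA/2J, 6.63-fold above 24 h controls (log2 2.73, SE 0.125, edgeR adjusted p = 1.61e-10). Ppargc1a stood at 260, 251 and 208 CPM in C57BL/6J slices and 137, 161 and 173 CPM in DBA/2J, 3.75-fold above (log2 1.91, SE 0.097, edgeR adjusted p = 7.19e-10). Both genes were separate from their controls in both strains. Hnf4a was at 26.9, 43.5 and 37.7 CPM in C57BL/6J slices and 159.6, 108 and 94.2 CPM in DBA/2J, overlapping the 24 h controls in both strains. Its change was 0.58 (SE 0.195, edgeR adjusted p = 0.021). That call was lost with library totals alone (0.41, adjusted p = 0.0805), in a fit of all 48 libraries (adjusted p = 0.0666) and without any of 4 single libraries, C57BL/6J control 24 h replicate 1, DBA/2J control 24 h replicate 2, C57BL/6J normoxia-hyperoxia replicate 2 or DBA/2J normoxia-hyperoxia replicate 1 (adjusted p 0.052 to 0.0624).

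Ppara rose 1.84-fold (log2 0.88, SE 0.203, edgeR adjusted p = 0.00135), to 4.59, 6.35 and 4.39 CPM in C57BL/6J slices and 6.81, 5.42 and 6.38 CPM in DBA/2J. Esrra rose 1.45-fold (0.53, SE 0.068) and Pax2 1.34-fold (0.42, SE 0.108), the latter with overlapping DBA/2J libraries and at 0.25 (adjusted p = 0.0399) with library totals alone. Rxra fell 1.49-fold (-0.58, SE 0.0663, edgeR adjusted p = 1.83e-06), to 41.6, 51.0 and 43.2 CPM in C57BL/6J slices and 62.6, 51.6 and 51.7 CPM in DBA/2J, the lowest group means of the 8 conditions in each strain. Pax8 fell 1.76-fold (-0.81, SE 0.0579, edgeR adjusted p = 1.08e-08), to between 103.8 and 126 CPM in the 6 libraries. By edgeR 0 of 8 members had a called strain difference in this response, against 1.43% of all genes, with 1 member, Lhx1, at an unadjusted p under 0.05 and 0 called by DESeq2.

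Set directly against normoxia, 7 of 8 were called (2 higher, 5 lower; background 73.5%). Hnf4a was 8.01-fold lower (log2 -3.00, SE 0.152, edgeR adjusted p = 1.49e-09), Ppara 2.99-fold lower (-1.58, SE 0.113) and Rxra 2.83-fold lower (-1.50, SE 0.0842). Esrra was 1.80-fold lower (-0.85, SE 0.0656) and Lhx1 1.32-fold lower (-0.40, SE 0.0913, DBA/2J libraries overlapping). Ppargc1a was 2.31-fold higher (1.21, SE 0.0937, edgeR adjusted p = 1.74e-08) and Pax8 1.33-fold higher (0.41, SE 0.0566). Pax2 differed by -0.14 (SE 0.119, edgeR adjusted p = 0.311); without DBA/2J normoxia-hyperoxia replicate 1 it was called, at -0.28 (adjusted p = 0.0157). Strain differences were called for 0 of 8 members by edgeR, against 18.2% of all genes, with 3 at an unadjusted p under 0.05 (Pax8, Hnf4a and Ppara) and 1 called by DESeq2.

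Against 6 h controls 7 of 8 were called (1 higher, 6 lower; background 44.9%). Hnf4a was 3.2-fold lower (-1.68, SE 0.156) and Ppara 2.19-fold lower (-1.13, SE 0.131), while Lhx1 was 1.72-fold higher (0.78, SE 0.105). Rxra (-0.63, SE 0.0773) and Pax8 (-0.38, SE 0.0614) were lower. Ppargc1a was close to its 6 h level, at -0.27 (SE 0.0995, edgeR adjusted p = 0.0422), a call lost in 10 of 18 alternatives (adjusted p 0.0505 to 0.139). These include leaving out C57BL/6J control 6 h replicate 2 or 3, DBA/2J control 6 h replicate 1 or 2, C57BL/6J normoxia-hyperoxia replicate 3, or DBA/2J normoxia-hyperoxia replicate 1 or 2. Esrra differed by -0.25 (SE 0.0787, edgeR adjusted p = 0.0197), with an adjusted p of 0.0526 without DBA/2J normoxia-hyperoxia replicate 3. Pax2 was not called (0.21, SE 0.112). Strain differences numbered 0 of 8 by edgeR against 0.232% of all genes, with 2 members at an unadjusted p under 0.05 (Pax8 and Lhx1) and 0 by DESeq2.

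The target lists divided in the same arm, where 34.1% of all genes were higher and 34.1% lower than in 24 h controls. Of the 25 HNF4A-linked genes 14 were lower and 3 higher than in 24 h controls (median log2 change -0.81 against 0.00 for all genes), with Slc6a19, a neutral amino acid carrier, lowest (-2.25, SE 0.17), Gatm, of creatine synthesis, highest (1.39, SE 0.23), and the gluconeogenic gene Pck1 at 0.03 (SE 0.19). Compared with normoxia all 25 were lower, by a median of -4.36. Of the 30 respiration genes 25 were higher than in 24 h controls and 4 lower (median 0.58). Of the PPARA and fat oxidation genes 15 were higher, 7 lower, 7 uncalled and 1 too low to test (median 0.29). Cpt1a rose by 1.14, and Plin2 fell by 3.04 on the log2 scale. Pdk4 was 4.24 log2 units higher than under normoxia (SE 0.23). Of the other nuclear receptors 17 were higher and 4 lower, with 1 too low to test, led by Esrrg (2.41, SE 0.088). Of the other nephron factors 19 were higher and 2 lower (1 lower in 4 alternatives), with 2 too low to test, led by Foxi1 of intercalated cells (2.79, SE 0.19). Wt1 rose by 1.44, Tfcp2l1 by 0.75 and Ppargc1b by 1.02, and Tfam changed by -0.53.

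**Figure D4:**
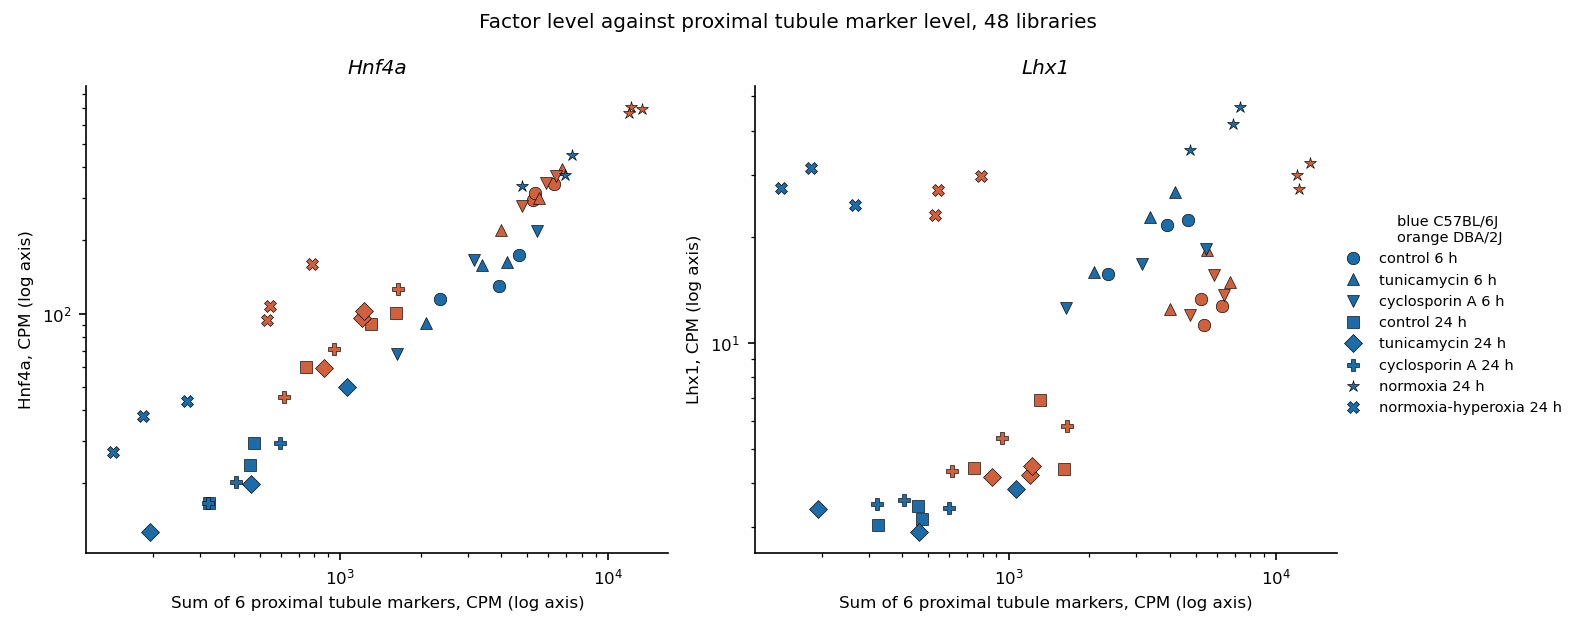
Level of Hnf4a (left) and Lhx1 (right) against the sum of 6 proximal tubule markers in each of 48 libraries, in CPM on log axes, with colour for strain and shape for condition. In normoxia-hyperoxia libraries, whose marker sums were 141 to 267 CPM in C57BL/6J and 532 to 786 CPM in DBA/2J, Lhx1 was at 23.1 to 31.3 CPM, against 3.05 to 6.89 CPM in 24 h controls with sums of 324 to 1614 CPM.

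Under normoxia-hyperoxia the sum of the proximal tubule markers was 141, 267 and 183 CPM in C57BL/6J slices and 786, 547 and 532 CPM in DBA/2J, while Hnf4a stood above the 24 h control range of its strain in 4 of these 6 libraries and within it in 2. Of the 6 markers 4 were lower than in 24 h controls and 0 higher by edgeR. Marker sets of the loop of Henle, distal convoluted tubule, principal cells, intercalated cells, podocytes and leukocytes were higher, 4 of 4 in each, while endothelium and stroma each had 2 of 4 higher and 1 lower. The mitochondrial share of counts was 14.1% ± 2.3 in C57BL/6J slices and 13.7% ± 3.3 in DBA/2J (SD, n = 3), also above the 24 h controls. The distal convoluted tubule sum, for example, was 6583 ± 1585 CPM in C57BL/6J slices and 7169 ± 694 CPM in DBA/2J, against 941 ± 212 and 1679 ± 237 CPM in 24 h controls (SD, n = 3). Whether a changed mix of cells has a part in the members' changes was not tested.

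The strains differed in the level of several members within a condition. Of the 8 members 4 differed in 6 h controls and 4 in 24 h controls, at backgrounds of 26.2% and 22.2% of all genes; 6 differed under normoxia (background 46.8%) and 2 under normoxia-hyperoxia (background 25.7%). The normoxia count was 4 without C57BL/6J or DBA/2J normoxia replicate 1, which ended the Pax8 and Lhx1 calls, and 4 in the fit of all 48 libraries. The normoxia-hyperoxia count was 3 without DBA/2J replicate 1, with Pax2 at -0.67 (adjusted p = 0.00578), or without C57BL/6J replicate 2, with Rxra at 0.38 (adjusted p = 0.0432). With library totals alone the genes higher and lower in DBA/2J numbered 3894 and 1247 in place of 2299 and 2151 in 6 h controls, and 3370 and 1187 in place of 2470 and 1953 under normoxia-hyperoxia. Hnf4a was higher in DBA/2J in all 4 conditions, by 2.31-fold in 6 h controls (log2 1.21, SE 0.226, edgeR adjusted p = 0.00246) and 3.61-fold in 24 h controls (1.85, SE 0.238, edgeR adjusted p = 0.000208). Under normoxia it was 1.90-fold higher (0.93, SE 0.198, edgeR adjusted p = 0.00233; adjusted p = 0.0765 in a fit of all 48 libraries), and under normoxia-hyperoxia 3.32-fold higher (1.73, SE 0.209, edgeR adjusted p = 8.29e-05). Every DBA/2J library lay above every C57BL/6J library in each of these conditions. The mean proximal tubule marker sum was also higher in DBA/2J in the same conditions. The mean sums of the loop of Henle, principal cell, intercalated cell, podocyte, endothelium and stroma markers were lower in DBA/2J in all 4. The size of the gap varied. Under normoxia the loop of Henle sum was 12260 ± 3246 CPM in C57BL/6J slices and 3240 ± 1152 CPM in DBA/2J (SD, n = 3). In 24 h controls that sum was 2944 ± 1233 and 1900 ± 1022 CPM, with overlapping libraries (SD, n = 3). The endothelium sums under normoxia-hyperoxia were close, at 1087 ± 190 and 1074 ± 174 CPM (SD, n = 3). The distal convoluted tubule sum was lower in DBA/2J at 6 h and under normoxia and higher in the other two conditions, and the leukocyte sum was lower under normoxia alone. The mean share of counts from mitochondrial genes was lower in DBA/2J in 6 h controls, in 24 h controls and under normoxia. Under normoxia it was 23.9% ± 1.5 in C57BL/6J slices and 12.3% ± 0.53 in DBA/2J (SD, n = 3). Under normoxia-hyperoxia the shares were close, at 14.1% ± 2.3 and 13.7% ± 3.3 (SD, n = 3). The part of these sums and shares in the members' strain differences was not tested.

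Ppargc1a leaned the other way, lower in DBA/2J under normoxia (log2 -0.70, SE 0.132, edgeR adjusted p = 0.000638) and normoxia-hyperoxia (-0.62, SE 0.131, edgeR adjusted p = 0.00297), with separate groups in both. Its 6 h difference of -0.46 (SE 0.143, edgeR adjusted p = 0.0283), with overlapping libraries, was lost in 6 of 17 alternatives (adjusted p 0.0725 to 0.128), among them leaving out C57BL/6J replicate 2 or 3 or DBA/2J replicate 1 or 3 of the 6 h controls. Rxra was higher in DBA/2J in 6 h controls (0.53, SE 0.0849, edgeR adjusted p = 0.000429) and under normoxia (0.59, SE 0.115, edgeR adjusted p = 0.000721), and by 0.27 in 24 h controls (SE 0.0847, edgeR adjusted p = 0.0319), a call lost in 8 of 17 alternatives (adjusted p 0.0615 to 0.261), among them leaving out C57BL/6J control 6 h replicate 3, any C57BL/6J 24 h control, or DBA/2J control 24 h replicate 1 or 3. Ppara was higher in DBA/2J under normoxia (0.79, SE 0.146, edgeR adjusted p = 0.000499). Pax2 was lower in DBA/2J 24 h controls (-0.48, SE 0.101, edgeR adjusted p = 0.00306). Lhx1 changed sides: -0.65 (SE 0.175) in 6 h controls, 0.70 (SE 0.206) in 24 h controls and -0.38 (SE 0.126) under normoxia, with edgeR adjusted p of 0.0134, 0.0238 and 0.0213. The first was lost without C57BL/6J replicate 3 or DBA/2J replicate 2 of its condition (adjusted p 0.0675 and 0.0527). The second was lost without C57BL/6J replicate 1 or 2 or DBA/2J replicate 3 (adjusted p 0.0695 to 0.124), and the last without C57BL/6J replicate 1 or 3 or DBA/2J replicate 1 or 2 (adjusted p 0.0553 to 0.108). Pax8 differed by 0.23 under normoxia (SE 0.08, edgeR adjusted p = 0.0272), and 9 of 17 alternatives lost that call (adjusted p 0.0516 to 0.436), among them leaving out C57BL/6J normoxia replicate 1 or 2, DBA/2J normoxia replicate 1 or 3, C57BL/6J normoxia-hyperoxia replicate 1 or DBA/2J normoxia-hyperoxia replicate 2. Esrra was not called in any of the 4 conditions, with differences from -0.11 to 0.06.

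**Figure D5:**
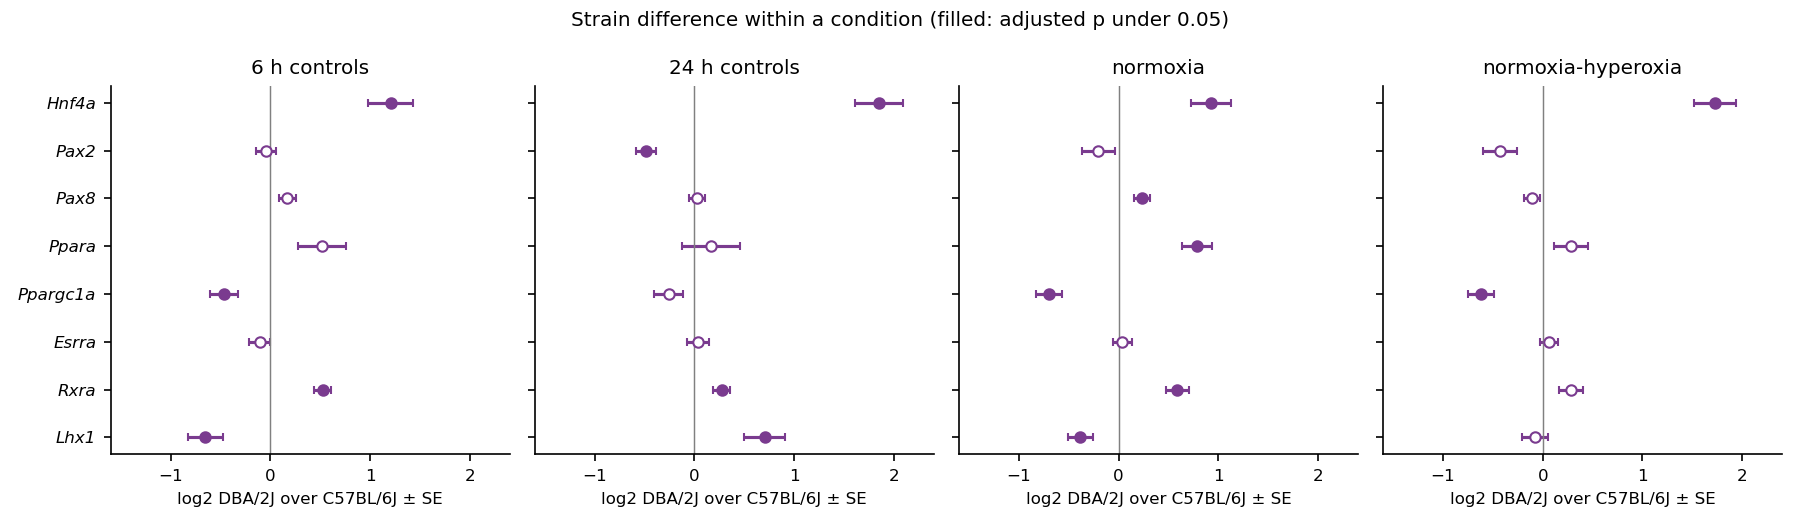
Log2 difference of DBA/2J over C57BL/6J with its SE for the 8 genes in 4 conditions; filled points passed an adjusted p of 0.05. Hnf4a is higher in DBA/2J in all 4, and Lhx1 lies on different sides of 0.

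Across the 16 group means of log2 CPM the members' patterns were compared as a description, since the groups share strains and culture. Ppara tracked Esrra (Pearson r = 0.91) and Hnf4a (0.91), Lhx1 tracked Esrra (0.88), and Pax8 ran opposite to Lhx1 (-0.89) and Esrra (-0.83). Ppargc1a was loosely related to Hnf4a (0.36) and Esrra (0.56), and Rxra hardly to Pax2 (0.02) or Lhx1 (0.17). Among 13079 genes the closest to Hnf4a were Slc25a10 (0.994), Cckar (0.994) and Dao (0.9935), and those closest to Ppara were Akr1e1 (0.991), Ndufa13 (0.988) and Hibch (0.988). Closest to Ppargc1a were Rbm47 (0.986), Mknk2 (0.980) and Ivns1abp (0.978), to Esrra Phb (0.983), Pnkd (0.982) and Nr2f2 (0.982), and to Rxra Wdr18 (0.989), Pqlc2 (0.986) and Aup1 (0.985). Lhx1 was most like Foxo4 (0.981), Mcf2l (0.981) and Nipal3 (0.981), Pax8 most like Higd1a (0.977), an unnamed gene (0.965) and Naca (0.964), and Pax2 most like Cbx6 (0.927), 1700029J07Rik (0.910) and Apela (0.909).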

How the data were processed

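Raw read counts per gene in 48 libraries, as deposited by the authors, are whole numbers that were not normalized. The submitters' processing notes name GRCm38, STAR 2.7.9a, featureCounts 1.5.1, bcl2fastq 2.20.0 and FastQC 0.11.8; their settings, the strand option and the annotation release are not given in the sources used here. GRCm38 is the C57BL/6J genome. Per the labels' protocols, total RNA was made into stranded mRNA libraries.

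Each of 10 comparisons was fitted on its own 12 libraries (4 groups, 8 residual degrees of freedom) with edgeR 4.0.16 (R 4.3.3), using TMM factors, filterByExpr, robust quasi-likelihood F tests and Benjamini-Hochberg adjustment over all genes tested. The contrasts were the mean over strains, the interaction (DBA/2J minus C57BL/6J) and, from 2 of the fits, strain differences, 24 in all and not adjusted for one another. Alternatives were DESeq2 1.42.0, its size factors in edgeR, library totals alone, no filter, a fit of all 48 libraries, a replicate block and leaving out each library. The scripts were tested on simulated data. Lengths per kilobase are exon unions. Likeness used group means of log2 CPM with a prior count of 2.

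The members, gene lists and marker sets were chosen with earlier results of these data known. Named besides the members were fixed examples of each list and, per comparison, its largest called rise or fall with a mean log2 CPM of at least 1; likeness named the 3 nearest genes. The last 3 of 6 promoter motifs were added after the first 3 gave no match. A planned comparison of protein sequences was not made. Some fixed examples and 1 motif are not reported here.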

Additional observations from a re-analysis of the deposited data

Results flagged for a closer look

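The effect of a comparison differed between the strains, by a test of the interaction, for Lhx1 in 2 comparisons. From 6 h to 24 h in controls the DBA/2J change minus the C57BL/6J change was 1.36 (log2), the fall being smaller in DBA/2J. That call was lost in 11 of 18 alternatives, with an adjusted p of up to 0.127. From 24 h controls to normoxia it was -1.08 (log2), the rise being smaller in DBA/2J. That call was kept in all 18 alternatives. Both use the same 6 libraries of 24 h controls, where Lhx1 was at 3.05 to 6.89 CPM.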

How the results depend on the processing

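Each comparison was recomputed with 5 other settings, with the replicate block where it could be fitted, and without each library. The block for strain differences is nested in strain and could not be fitted. Whether same-numbered libraries are paired is not known. Of 6 same-numbered pairs, 0 to 5 correlated above 0.1 in a comparison, so the numbers were not treated as pairs. In normoxia against 6 h controls 5 did, and 6 of 6 correlated best with their own number. For tunicamycin at 6 h, 4 of 6 were above 0.1 and 5 of 6 correlated best with their own number. The same counts held for normoxia-hyperoxia against 24 h controls and against normoxia. In the other comparisons 0 to 3 of 6 were above 0.1, and 2 to 4 correlated best with their own number. These are hints of pairing from the data and not from the design. No drug change of a member was called under the replicate block. Under the replicate block the Lhx1 interaction from 6 h to 24 h was 1.32 (adjusted p = 0.0612). The Ppargc1a change for normoxia-hyperoxia against 6 h controls was -0.26 under that block (edgeR adjusted p = 0.0562). Both calls were lost.

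For strain differences in response, the members called from 6 h to 24 h went from 1 to 0 with library totals alone and with the replicate block, to 2 with no filter, and to between 0 and 1 without single libraries. For normoxia against 24 h controls 1 became 2 with library totals alone and with DESeq2, 3 with no filter, and 1 to 3 without single libraries. For normoxia-hyperoxia 0 became 1 against 24 h controls with no filter. Against normoxia 0 became 1 with library totals alone, no filter, DESeq2 or the replicate block, and 0 to 1 without single libraries. Members differing between strains went from 4 to as few as 2 without single libraries in 6 h and in 24 h controls, and from 2 to 4 under normoxia-hyperoxia in the fit of all 48 libraries. Calls were also gained in 6 h controls. Ppara was called with no filter (0.54, edgeR adjusted p = 0.0172) and without C57BL/6J control 6 h replicate 1 (0.73, edgeR adjusted p = 0.0469). Pax8 was called with library totals alone (0.32, edgeR adjusted p = 0.00696). The cause was not tested.

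Near-0 changes that were not called also turned in sign; the cause was not tested. Rxra for cyclosporin A at 6 h became 0.0029 with DESeq2's factors, 0.0053 with no filter, 0.003 with DESeq2, 0.0079 with all 48 libraries. Rxra for 24 h against 6 h controls became 0.1435 with library totals alone. Pax8 for the strain difference in 24 h controls became -0.0271 with no filter. Esrra for the strain difference in 24 h controls became -0.0168 with no filter. Pax2 for the strain difference in 6 h controls became 0.1046 with library totals alone. Esrra for the strain difference in 6 h controls became 0.0376 with library totals alone. Lhx1 for the strain difference in normoxia-hyperoxia became 0.0171 with library totals alone. Esrra for the strain difference in normoxia became -0.0326 with library totals alone, -0.0535 with no filter, -0.0404 with all 48 libraries. Without single libraries, log2 values took either sign. For tunicamycin at 6 h, the ranges were Hnf4a -0.1516 to 0.0722, Pax8 -0.0134 to 0.121, Ppara -0.0237 to 0.1418, Ppargc1a -0.078 to 0.1521, Esrra -0.0009 to 0.1077, Rxra -0.0153 to 0.0849. For tunicamycin at 24 h, the ranges were Hnf4a -0.2267 to 0.3077, Pax2 -0.0172 to 0.039, Pax8 -0.0298 to 0.0259, Ppara -0.2615 to 0.0306, Lhx1 -0.1599 to 0.0147. For cyclosporin A at 6 h, the ranges were Hnf4a -0.1075 to 0.2544, Ppara -0.0613 to 0.1995, Ppargc1a -0.006 to 0.1594, Esrra -0.0874 to 0.0372, Rxra -0.0569 to 0.0384. For cyclosporin A at 24 h, the ranges were Hnf4a -0.2845 to 0.0958, Ppara -0.0563 to 0.196. For the strain difference in 24 h controls, the ranges were Pax8 -0.0188 to 0.0845, Ppara -0.0826 to 0.4421, Esrra -0.0235 to 0.103. For the strain difference in 6 h controls, the ranges were Pax2 -0.1066 to 0.0253, Esrra -0.1626 to 0.051. For the strain difference in normoxia-hyperoxia, the ranges were Lhx1 -0.1715 to 0.04. For the strain difference in normoxia, the ranges were Esrra -0.0256 to 0.1036.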
